A study of Mus musculus with 9 samples.

Results

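The genes described here encode the enzymes that attach a small polar molecule to drugs, hormones and toxic lipids, namely the glutathione S-transferases (Gst and Mgst), the UDP-glucuronosyltransferases (Ugt) and the cytosolic sulfotransferases (Sult). Members were the protein-coding genes of these families, chosen by symbol, whose mean level over the 9 kidney libraries of the study was at least 0.5 CPM (raw counts of a gene scaled to the library total). Of 68 protein-coding symbols that matched, 41 were members, namely 18 of 22 Gst, 3 of 3 Mgst, 14 of 22 Ugt and 6 of 21 Sult genes. The rule left out 27 symbols, of which 13 had no reads. Ugt2a3 was the member nearest to the minimum with 0.574 CPM, and Ugt1a9 the nearest below it with 0.461 CPM. The count files held 54532 genes, of which 21995 were protein-coding.

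PolyA+ RNA of mouse kidneys was sequenced in 3 groups of 3 libraries, written here in the order replicate 1, 2 and 3. Wild-type mice were on the C57BL/6J background, were bought at 4 to 8 weeks of age and are not described as injected. Trex1-/- mice lack the exonuclease TREX1, which clears DNA from the cytosol, and were obtained by crossing heterozygotes. From 1 month of age they were given either PBS (per the methods, a vehicle of 1% Tween 80 in PBS) or 10 mg/kg of the STING antagonist SN-011 each day for 2 weeks, both by intraperitoneal injection. STING is the adaptor through which cytosolic DNA induces interferon. The genotype field of the labels gave C57BL/6J for all 9 libraries, and group and treatment were read from the titles and protocols. Nothing in the labels said that replicates were separate animals, so p-values measure the spread between these libraries.

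Glutathione S-transferases join glutathione to electrophiles such as products of lipid peroxidation. UDP-glucuronosyltransferases of the UGT1 and UGT2 families move glucuronic acid from UDP-glucuronate to bilirubin, bile acids, steroids and drugs, and sulfotransferases move sulfate from the donor PAPS to phenols, steroids and catecholamines. In the kidney these reactions are best known from the proximal tubule, which takes up organic acids from blood and secretes the conjugates into urine. The levels of several of these enzymes are known to differ between male and female mice.

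Library totals ran from 16118813 to 21928965 counts. The labels give no sex, but Uty, Ddx3y, Eif2s3y and Kdm5d, which lie on the Y chromosome, summed to 153 CPM or more in 5 libraries, and the other 4 held Xist at 434 CPM or more with Y-linked reads at or below 0.378 CPM. The libraries with Y-linked reads were wild-type replicate 3, all 3 PBS libraries and SN-011 replicate 2, so wild type and SN-011 held both kinds and PBS held one kind. The members' comparisons with the PBS group are therefore given without and with a Y-linked term, a covariate for the kind of library. Trex1 had 0 counts in all 9 libraries, wild type included, and all of its 1147 exonic bases were shared with another gene, so it checks no label. The 10 listed interferon-stimulated genes were all higher in Trex1-/- PBS and in SN-011 than in wild type. All 10 proximal tubule markers were detected, with summed levels of 8703 to 11773 CPM per library.

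On GRCm38, 7 members lay within 679 kb of chromosome 5 (chr5:86889767-87569027), namely Ugt2b34, Ugt2b5, Ugt2b37, Ugt2a3, Ugt2b38, Sult1b1 and Sult1d1. The 250 bases before the RefSeq start of 4 of them are shown, because 3 of these genes were high and 1 was low in the same libraries. They are printed 5′ to 3′ on the strand of the gene, from RefSeq on GRCm38.p6, and lie on the minus strand at chr5:87254789-87255038 (Ugt2b37), chr5:87424204-87424453 (Ugt2b38), chr5:87140341-87140590 (Ugt2b5) and chr5:86906938-86907187 (Ugt2b34). Capitals mark the longest run shared by Ugt2b37 and Ugt2b38, of 82 bases.
Ugt2b37: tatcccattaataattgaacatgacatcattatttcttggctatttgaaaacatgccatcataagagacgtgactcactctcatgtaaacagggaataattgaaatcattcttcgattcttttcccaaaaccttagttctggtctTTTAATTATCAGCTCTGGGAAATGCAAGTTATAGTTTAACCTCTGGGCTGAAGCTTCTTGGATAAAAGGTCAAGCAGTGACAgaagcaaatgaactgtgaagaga
Ugt2b38: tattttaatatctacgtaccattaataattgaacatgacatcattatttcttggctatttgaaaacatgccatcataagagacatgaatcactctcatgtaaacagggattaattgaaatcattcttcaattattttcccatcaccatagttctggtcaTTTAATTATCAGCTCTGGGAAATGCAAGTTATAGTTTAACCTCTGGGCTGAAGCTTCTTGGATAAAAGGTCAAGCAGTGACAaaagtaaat
Ugt2b5: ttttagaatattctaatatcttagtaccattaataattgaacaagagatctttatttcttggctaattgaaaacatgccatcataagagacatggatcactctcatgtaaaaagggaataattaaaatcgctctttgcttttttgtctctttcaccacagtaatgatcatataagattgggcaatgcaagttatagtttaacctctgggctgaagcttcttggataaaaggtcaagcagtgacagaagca
Ugt2b34: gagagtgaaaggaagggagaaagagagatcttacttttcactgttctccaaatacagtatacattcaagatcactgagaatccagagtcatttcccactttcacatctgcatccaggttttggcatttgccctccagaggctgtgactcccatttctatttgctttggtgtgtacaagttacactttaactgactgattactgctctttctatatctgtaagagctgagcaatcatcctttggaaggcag

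Ugt2b37 and Ugt2b38 had the same base at 94.1% of 236 aligned positions. Ugt2b5 matched Ugt2b37 at 87.6% of 226 and Ugt2b38 at 88.3% of 240 aligned positions. Ugt2b34 shared no run longer than 9 bases with these 3 windows. The androgen receptor motif AGAACA, searched on both strands of windows from 250 bases before to 50 bases after the start, was found for Ugt2b34 and not for the other 3. It occurred in 13 of the 37 members with a window (35.1%) and in 21.3% of the 27025 genes with one, a gene with several windows counting once. The HNF1 motif GTTAAT occurred in 21.6% of these members and 8.24% of all genes with a window, and the STAT5 motif TTCNNNGAA in 13.5% and 9.55%. The antioxidant response element TGACNNNGC occurred in 10.8% and 14.0%, the xenobiotic response core GCGTG in 27.0% and 35.2%, and the interferon response core in 5.41% and 3.99%. Gsta4, Gstt2, Ugt1a6b and Ugt3a2 had no window. A match of letters describes the window and shows no binding.

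Levels between genes were compared as CPM per kb of exon not shared with another gene. By this measure the highest members were Ugt3a2 with 371 ± 86.9 (SD, n = 9), Gstm1 with 346 ± 38.6, Sult1d1 with 297 ± 58.2 and Gsta2 with 208 ± 80.6. Ugt3a2 encodes a UDP-glycosyltransferase that does not use glucuronic acid as its main donor, GSTM1 is a mu-class enzyme, SULT1D1 sulfates catecholamines and other phenols, and GSTA2 is an alpha-class enzyme that also reduces lipid hydroperoxides. The spreads of these neighbours overlap, so their order is not firm. Below them, in their own families, Ugt2b38 had 146 ± 131, Ugt1a2 129 ± 148 and Mgst3, a membrane-bound glutathione transferase, 109 ± 17.7. The SD of Ugt1a2 exceeded its mean, and per kb of all exons, shared ones included, its level was 52.4, below Mgst3. With Y-linked reads and with Xist, Ugt1a2 had means of 5.17 and 254 CPM, and Ugt2b38 of 462 and 45.5 CPM. Their place in this order thus depends on the kind of library.

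Among the other leading members of a family, Gstt1 of the theta class had 70.5 ± 14.6 CPM per kb, Gstp1 of the pi class 64.0 ± 10.3 and Gstk1 of the kappa class 46.7 ± 6.42. Gstz1, whose product isomerizes maleylacetoacetate in tyrosine breakdown, had 38.5 ± 3.46, and Gsto1, a thioltransferase, 36.1 ± 6.00. Ugt8a, whose product adds galactose to ceramide, had 12.1 ± 10.7. Sult2b1, a sulfotransferase for cholesterol and pregnenolone, had 0.462 ± 0.218, and Sult5a1 had 0.379 ± 0.125. Levels of the 41 members thus covered the range from 0.223 for Mgst2, which makes leukotriene C4, to the value of Ugt3a2. No Sult3, Sult4 or Sult6 gene was a member.

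**Figure D1:**
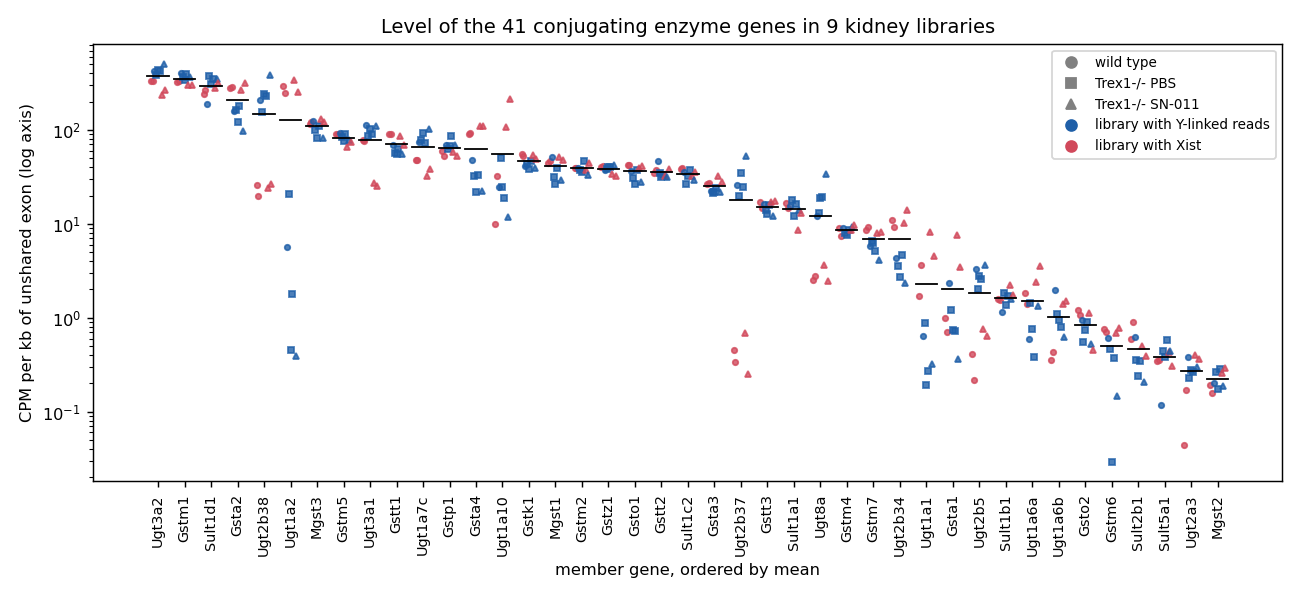
Level of each member in CPM per kb of unshared exon (log axis) in the 9 libraries, ordered by mean (black bar). Circles are wild type, squares Trex1-/- PBS and triangles Trex1-/- SN-011, and colour gives the kind of library. For Ugt2b37, Ugt2b38, Ugt2b5, Ugt8a and Ugt1a2 the points fall into separate sets by kind, whereas the Mgst and Sult members overlap between the kinds.

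Some members share sequence with other genes. Where the copies lie at different places this limits their counts, because multi-mapped reads were not counted. Of the 150-base windows of the longest transcript, 73.7% of Gsta1 and 26.8% of Gsta2 also occurred in each other, Gm10639 or Gm3776. The share was 41.8% for Gstp1 (with Gstp2 and Gstp-ps) and 21.7% for Gstt3. The Ugt1a genes at chr1:88055388-88220002 use a common set of 3′ exons after a first exon of their own, and 56.1% to 100% of their windows were shared, with 100% for Ugt1a6a. These common exons are the same bases of the genome, so their reads can map uniquely. How reads that overlap several genes were counted is not given. Ugt2b38 and Ugt2b5 shared 19.2% and 19.5% with each other, and Ugt2b37 shared none.

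In whole kidney, fewer cells of a type and less RNA per cell cannot be told apart. Summed over members, the 14 Ugt genes had 1386 to 1724 CPM in the libraries with Xist and 2063 to 3066 CPM in those with Y-linked reads. The 18 Gst genes had 1960 to 2067 CPM with Xist and 1623 to 1942 CPM with Y-linked reads. Both sums fell into ranges that did not touch, the Ugt sum higher and the Gst sum lower in libraries with Y-linked reads. Within the families the sums did not all run the same way. The 6 Ugt1a genes had 350 to 519 CPM with Xist and 159 to 220 CPM with Y-linked reads, opposite to the 5 Ugt2 genes with 78.7 to 113 and 348 to 845 CPM. The 4 Gsta genes had 558 to 641 CPM with Xist and 239 to 360 CPM with Y-linked reads, whereas Gstp1 was higher with Y-linked reads (97.7 to 132 against 80.7 to 91.1 CPM) and the Gstm sums overlapped. The 6 Sult genes had 700 to 871 CPM with Xist and 562 to 1000 CPM with Y-linked reads, ranges that overlapped.

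The Y-linked term gave the difference between the kinds of library within the wild-type and SN-011 groups, each of which held 1 library with Y-linked reads and 2 with Xist, with the spread taken from all 9 libraries. At an edgeR quasi-likelihood adjusted p under 0.05 (Benjamini-Hochberg over 16646 genes), 14 of the 41 members were called, or 34.1%, beside 3.65% of all genes tested. Of these, 7 were higher with Y-linked reads (2.51% of all genes) and 7 were lower (1.14%). Ugt1a1 alone had a mean under 0.5 CPM in one kind of library, and over the other 40 members the count was 13, or 32.5%. The calls took in 10 of 14 Ugt and 4 of 18 Gst members. None of the Mgst and Sult members was called by edgeR, DESeq2 or limma-voom, and 0 of them had an unadjusted p under 0.05. Without wild-type replicate 3, when 16 members were called (6.83% of all genes), Mgst1 was among them. DESeq2 called 18 members (5.99% of all genes) and limma-voom 14 (3.57%), and 20 members had an unadjusted p under 0.05 (17.8%). Without SN-011 replicate 2 the count was 5 (1.25%).

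Without any model, 20 of 41 members (48.8%) did not overlap between the 5 libraries with Y-linked reads and the 4 with Xist, beside 8.97% of all genes. Of these 9 were higher (5.11% of all genes) and 11 lower (3.86%). The 6 that did not overlap without being called by edgeR's quasi-likelihood test were Gstm1 and Gstp1, higher with Y-linked reads, and Gsta3, Gstk1, Gstm6 and Gsto1, lower. DESeq2 called Gsta3, Gstk1 and Gstm1 of them. These 6 were named after their values were seen. The median difference over the members was -0.24 on the log2 scale and -0.01 over all genes.

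Ugt2b37 encodes a steroid and drug glucuronosyltransferase of the UGT2B family. It had 0.849, 0.632 and 48.6 CPM in wild type, 37.6, 66.4 and 46.2 CPM in PBS and 1.30, 99.9 and 0.475 CPM in SN-011. The 5 libraries with Y-linked reads lay far above the 4 with Xist in every group that held both. The difference was 6.43 ± 0.29 (log2, SE; adjusted p = 7.39e-07, edgeR), and the ratio of the means was 73.3.

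Ugt2b38, which has similar upstream bases, had 49.0, 37.8 and 397 CPM in wild type, 291, 459 and 434 in PBS and 45.7, 728 and 49.7 in SN-011. The order of the libraries was like that of Ugt2b37, but the libraries with Xist kept 37.8 to 49.7 CPM. The log2 difference was 3.58 ± 0.20 (adjusted p = 4.71e-06, edgeR). Ugt2b5, the third gene with similar upstream bases, had 0.754, 0.406 and 6.19 CPM in wild type, 3.78, 5.14 and 4.79 in PBS and 1.42, 6.84 and 1.19 in SN-011, a log2 difference of 2.87 ± 0.29 (adjusted p = 4.53e-04, edgeR). All 3 were therefore high in the same 5 libraries.

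Ugt2b34, whose upstream bases are unlike these, went the other way. Its CPM were 47.0, 39.5 and 18.5 in wild type, 15.5, 11.7 and 19.95 in PBS and 43.9, 10.1 and 61.0 in SN-011. It was lower with Y-linked reads by a log2 difference of -1.75 ± 0.28 (adjusted p = 0.00674, edgeR). Ugt2b34 and Ugt2b5 lie 218 kb apart. The window of Ugt2a3, also on chromosome 5, shared no run longer than 9 bases with those of Ugt2b37, Ugt2b38 and Ugt2b5. Ugt2a3, a low member, overlapped between the kinds, at 0.487 to 0.810 CPM with Y-linked reads and 0.0943 to 0.850 CPM with Xist. A link between upstream bases and direction was not tested. Sult1b1 and Sult1d1, the latter 130 kb from Ugt2b38, overlapped between the kinds and had log2 differences of -0.39 ± 0.20 and -0.08 ± 0.14, which did not pass the test.

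Ugt8a on chromosome 3 had 11.4, 12.6 and 54.7 CPM in wild type, 59.7, 85.1 and 87.6 in PBS and 16.5, 153 and 11.3 in SN-011. The log2 difference was 2.87 ± 0.25 (adjusted p = 1.88e-04, edgeR), with no overlap between the kinds. SN-011 replicate 2 held the highest value of Ugt8a, as it did of Ugt2b37, Ugt2b38 and Ugt2b5.

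**Figure D2:**
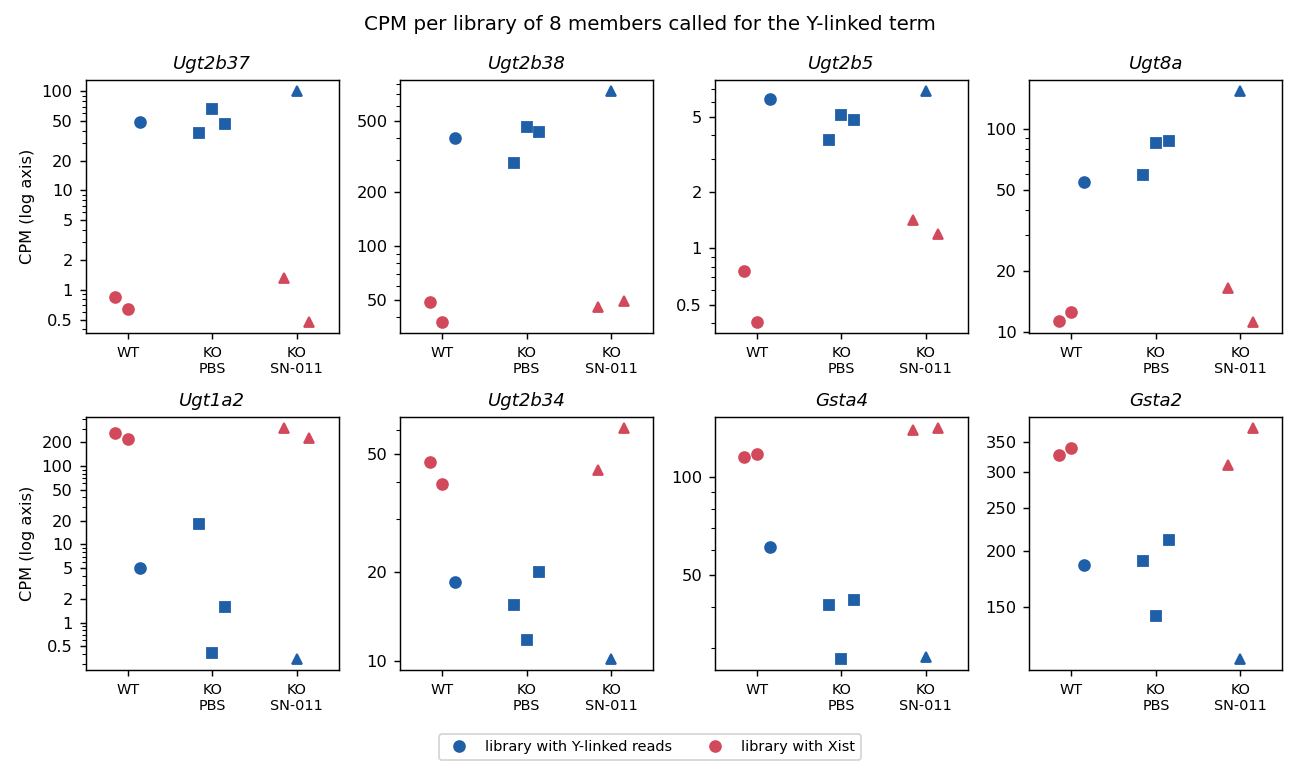
CPM per library (log axes, each panel with its own range) of 8 members called for the Y-linked term, by group and kind of library. In the upper row, Ugt2b37, Ugt2b38, Ugt2b5 and Ugt8a are higher in the 5 libraries with Y-linked reads, and in the lower row Ugt1a2, Ugt2b34, Gsta4 and Gsta2 are lower in them, with no overlap in any panel.

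Members of the Ugt1a locus differed in sign. Ugt1a2 had 264, 220 and 5.03 CPM in wild type, 18.5, 0.409 and 1.62 in PBS and 303, 0.348 and 230 in SN-011. It was high in all 4 libraries with Xist and low in the other 5, which differed widely among themselves, and the log2 difference was -6.61 ± 1.13 (adjusted p = 0.00993, edgeR). Ugt1a7c had 92.1, 92.2 and 142 CPM in wild type, 150, 178 and 138 in PBS and 61.5, 194 and 73.5 in SN-011, a difference of 1.10 ± 0.17 in the other direction (adjusted p = 0.00674, edgeR). Ugt1a1, the bilirubin glucuronosyltransferase, was at 0.417 ± 0.260 CPM (SD, n = 5) with Y-linked reads and 4.13 ± 2.48 CPM (n = 4) with Xist, and is a member only through the libraries with Xist. No log2 difference or p is therefore given for it. Its calls, counted in this text with those of the other members, are no support for a difference between kinds or groups. Ugt1a1 is named here after its values were seen.

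The 2 Ugt3 genes on chromosome 15 were both higher with Y-linked reads. Ugt3a2 had 1033, 1030 and 1325 CPM in wild type, 1204, 1343 and 1307 in PBS and 722, 1565 and 830 in SN-011, with a log2 difference of 0.70 ± 0.14 (adjusted p = 0.0199, edgeR). Ugt3a1, whose product uses UDP-N-acetylglucosamine, had 210, 205 and 301 CPM in wild type, 231, 272 and 244 in PBS and 73.0, 292 and 67.8 in SN-011, with a log2 difference of 1.35 ± 0.25 (adjusted p = 0.0138, edgeR). For Ugt3a1 the libraries with Xist were not alike, as the SN-011 pair lay well below the wild-type pair. Ugt3a2 was named after its values on this term were seen.

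The Gst members called were all lower with Y-linked reads. Gsta4, which clears the lipid aldehyde 4-hydroxynonenal, had 115, 118 and 60.9 CPM in wild type, 40.7, 27.8 and 42.1 in PBS and 140, 28.2 and 141 in SN-011 (log2 difference -1.56 ± 0.27, adjusted p = 0.0108, edgeR). Gsta2 had 328, 339 and 186 CPM in wild type, 190, 143 and 212 in PBS and 310, 115 and 376 in SN-011 (-1.19 ± 0.19, adjusted p = 0.00704, edgeR). For Gsta2 wild-type replicate 3 stood within the PBS libraries, for Gsta4 it stood between them and the other wild-type libraries, and for both SN-011 replicate 2 was at or near the bottom. Gstm7 and Gstt1, named after their values were seen, differed by -0.80 ± 0.15 and -0.43 ± 0.10 on the log2 scale (adjusted p = 0.0166 and 0.0465, edgeR). Gsta2 lies on chromosome 9, as Trex1 does, 30.7 Mb away.

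**Figure D3:**
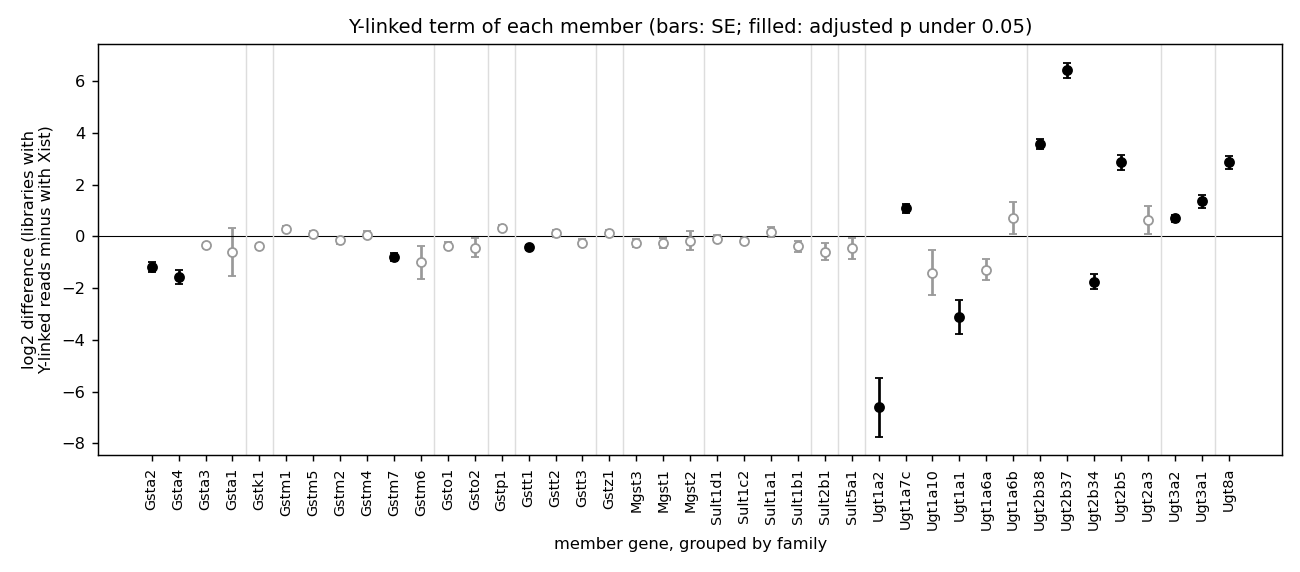
Log2 difference between libraries with Y-linked reads and libraries with Xist (Y-linked term of the edgeR fit, bars are SE) for the 41 members by family. Filled points passed an adjusted p under 0.05. Ugt members spread from -6.61 to 6.43, and the filled Gst points are all below 0.

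Leaving out SN-011 replicate 2, the only library of its group with Y-linked reads, ended 10 of the 14 calls with the same signs. The log2 differences then were 0.53 ± 0.12 for Ugt3a1, 0.36 ± 0.13 for Ugt3a2, 0.62 ± 0.16 for Ugt1a7c and -0.94 ± 0.20 for Gsta4, each over 1.5 times closer to 0. Leaving out wild-type replicate 3 moved values the other way, to 2.06 for Ugt3a1, -2.31 for Gsta4 and -9.55 for Ugt1a2. Without SN-011 replicate 2, Gsta2, Gsta4, Ugt1a2, Ugt1a7c, Ugt2b34 and Ugt3a1 had an adjusted p of 0.0582 to 0.106 (edgeR). Gstm7, Gstt1 and Ugt3a2 had one within 0.211 to 0.334. The last of the 10 lost calls was that of Ugt1a1, for which no p is given. The 4 genes Ugt2b37, Ugt2b38, Ugt2b5 and Ugt8a were still called without SN-011 replicate 2, and the remaining call was Ugt1a6b. Leaving out SN-011 replicate 1 ended the calls of Ugt3a1 (adjusted p = 0.0603, edgeR), Ugt3a2, Ugt1a1 and Gstt1. The call of Gstt1 was kept only without PBS replicate 3 or SN-011 replicate 3, and that of Gstm7 was also lost without wild-type replicate 2, as was that of Ugt1a1, which was lost without PBS replicate 3 too. Proximal tubule genes outside the families also differed between the kinds. Slc7a13, a transporter of the last proximal segment, was at 490 to 871 CPM with Y-linked reads and 2.26 to 47.1 CPM with Xist, and Slc22a6, the organic anion transporter OAT1, was higher by 1.11 ± 0.12 (log2). By edgeR the other 8 of the 10 proximal tubule markers were not called, while DESeq2 called 3 of the 10, and their part in the members' differences was not tested.

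The 3 group comparisons share libraries, so their values are given side by side. The first set Trex1-/- PBS mice against wild type. These groups also differed in source and, as described, in injection, which cannot be told apart from loss of TREX1. Trex1-/- PBS against wild type called 0 of 41 members by edgeR, beside 1.88% of all genes, and 7 had an unadjusted p under 0.05 (15.2% of all genes). DESeq2 called 2 members, Gstt1 and Sult1d1 (4.36% of all genes), limma-voom 0 (1.89%) and edgeR's exact test 9 (8.2%), namely Gsta4, Gstt1, Mgst1, Sult1d1, Sult2b1, Ugt1a1, Ugt1a2, Ugt2b34 and Ugt8a. Ugt1a1 is a member only through the libraries with Xist, so its call is no support for a difference. Elsewhere in the text edgeR means its quasi-likelihood test. With the Y-linked term the count was again 0 (1.19% of all genes), with 4 at an unadjusted p under 0.05 (10.9%). The median log2 fold change of the members was -0.13 without the term and -0.11 with it, and for 16 of the 41 members the sign differed between these fits. Groups did not overlap for 10 members (24.4%), beside 25.4% of all genes, with 3 higher (13.1% of all genes) and 7 lower (12.3%) in PBS.

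Sult1d1 had 596, 649 and 466 CPM in wild type and 915, 757 and 849 CPM in PBS. All PBS libraries lay above all wild-type libraries, and the log2 fold change was 0.56 ± 0.14 (adjusted p = 0.0880, edgeR). With the Y-linked term it was 0.62 ± 0.17 (adjusted p = 0.157). Among libraries with Y-linked reads only, it was 0.85 (adjusted p = 0.0432, edgeR; 1.43% of all genes called). There wild-type replicate 3, which held the lowest value of Sult1d1 of all 9 libraries, stood alone and was assumed to vary like PBS, so the p carries no spread of wild type. Over the libraries left without SN-011 replicate 2 its adjusted p was 0.0417. DESeq2 called it over all 9 libraries (adjusted p = 0.00687).

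The members of largest fold change among those without overlap were Ugt8a, Gsta4, Gstm6, Sult2b1 and Sult5a1. Without the Y-linked term their log2 fold changes were 1.57 ± 0.90, -1.41 ± 0.49, -1.27 ± 0.68, -1.18 ± 0.34 and 0.75 ± 0.38. With it they were 0.05 ± 0.31, -0.33 ± 0.28, -0.57 ± 0.75, -0.77 ± 0.37 and 1.11 ± 0.48. Without wild-type replicate 3 the first value for Ugt8a was 2.68 and that for Sult5a1 0.41, and without PBS replicate 2 that for Gstm6 was -0.73. None passed the edgeR quasi-likelihood test either way, while edgeR's exact test without the term called Ugt8a, Gsta4 and Sult2b1 (adjusted p = 0.0430, 4.02e-06 and 0.00448), and the values of Ugt8a and Gsta4 moved toward 0 with the term. Sult2b1 had 2.36, 3.52 and 2.49 CPM in wild type and 1.40, 0.934 and 1.37 in PBS, all lower (adjusted p = 0.134, edgeR). Leaving out SN-011 replicate 2 brought its adjusted p to 0.0445, and 5 members passed then, the others being Gsta4, Gstt1, Mgst1 and Sult1d1 (4.55% of all genes). Gstt1 had 137, 138 and 106 CPM in wild type and 86.2, 84.2 and 95.7 in PBS, a log2 fold change of -0.52 ± 0.16 that became -0.22 ± 0.12 with the term, and both missed the quasi-likelihood test.

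The genes with the most unequal kinds also had the widest intervals here. The fitted log2 fold change of Ugt1a2 in PBS against wild type was -4.58 ± 1.83 without the term and 1.24 ± 1.18 with it. That of Ugt2b37 was 1.61 ± 1.62 without and -0.06 ± 0.29 with it. For these genes the genotype and the kind of library cannot be told apart in the comparison without the term, because every PBS library had Y-linked reads and only wild-type replicate 3 did in its group.

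The second comparison asked what SN-011 did in Trex1-/- kidneys. SN-011 against PBS called 0 of 41 members by edgeR, beside 0% of all genes, and 7 had an unadjusted p under 0.05 (11.4% of all genes). DESeq2 (1.1% of all genes), limma-voom (0%) and the exact test (0.793%) also called 0. With the Y-linked term 0 were called (0% of all genes), with 5 at an unadjusted p under 0.05 (9.86%). Only Ugt2a3 and Gstm4 did not overlap, 4.88% of members beside 16.1% of all genes. Both were higher with SN-011 and 0 lower (7.74% and 8.41% of all genes), by 0.47 ± 0.54 and 0.19 ± 0.11 on the log2 scale, and neither passed the test.

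The count was 9 without SN-011 replicate 2 (3.05% of all genes), when the PBS libraries, all with Y-linked reads, were set against 2 libraries with Xist. Of these 9, 6 were higher (Gsta1, Gsta4, Mgst1, Ugt1a1, Ugt1a10 and Ugt2b34) and 3 lower (Ugt1a7c, Ugt3a1 and Ugt3a2). Here treatment and kind of library cannot be told apart, and the call of Ugt1a1, a member only through the libraries with Xist, is no support for a difference. Among the libraries with Y-linked reads alone, with SN-011 replicate 2 as the lone treated library, 0 members were called by edgeR (0.616% of all genes) and 7 had an unadjusted p under 0.05 (15.4%). Ugt8a had 153 CPM in that library against 59.7 to 87.6 in PBS, a log2 fold change of 1.01. The lone treated library was assumed to vary like PBS, so these calls carry no spread of the treated group.

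**Figure D4:**
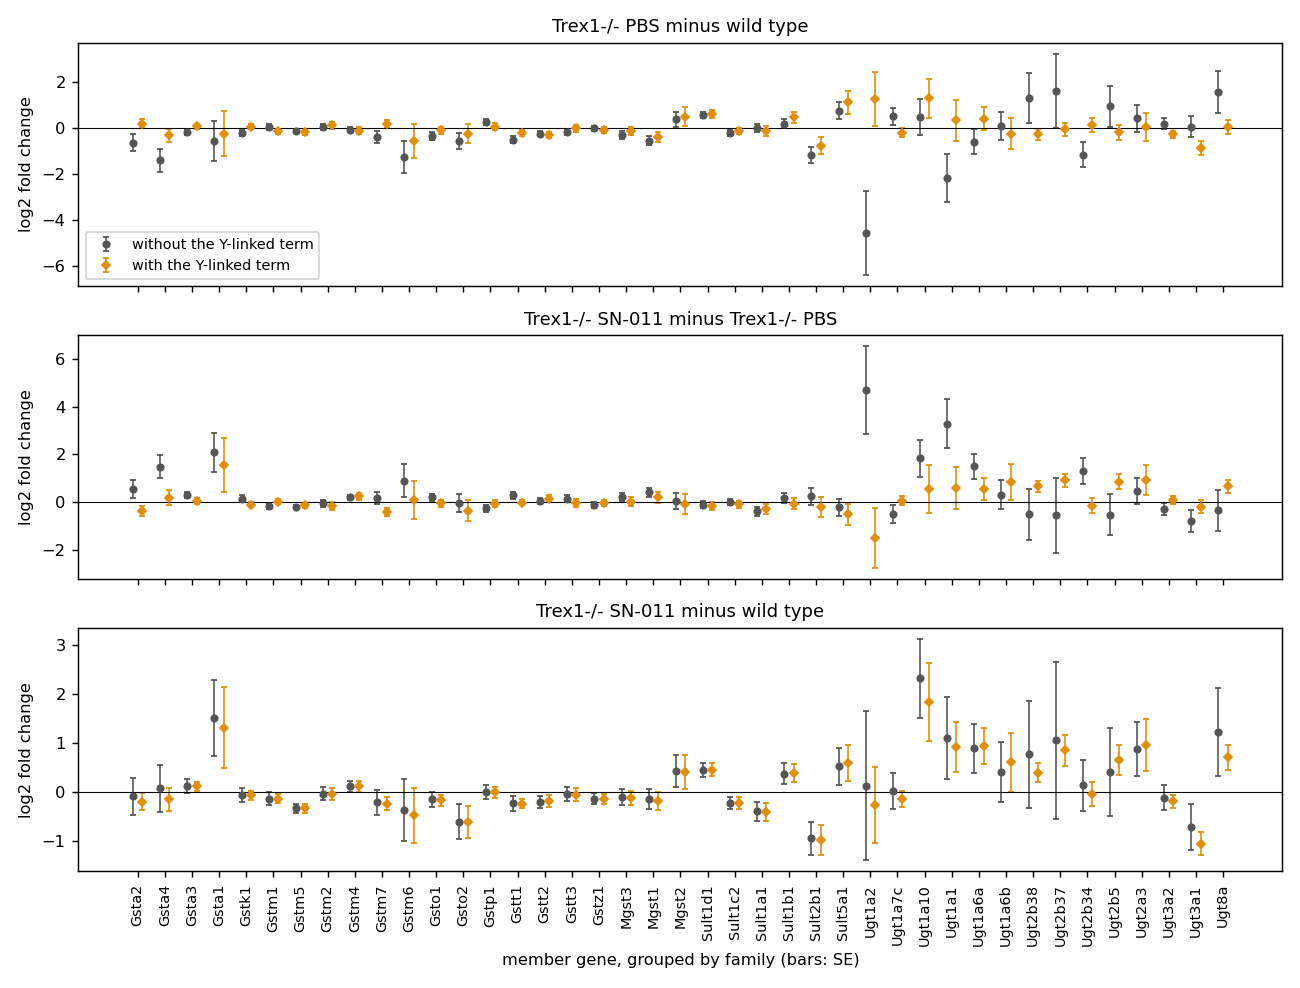
Log2 fold change of the 41 members in the 3 comparisons (bars are SE), without (grey circles) and with (orange diamonds) the Y-linked term. The wide grey bars of Ugt1a2, Ugt2b37, Ugt2b38, Ugt2b5 and Ugt8a shorten with the term, and of all points only Ugt3a1 in SN-011 against wild type, with the term, passed the test.

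The third comparison set SN-011 against wild type, groups with the same numbers of each kind of library. By edgeR 0 of 41 members were called, beside 1.28% of all genes, with 4 at an unadjusted p under 0.05 (18% of all genes). DESeq2 called Gstm5 and Sult1d1 (4.9% of all genes), and limma-voom (1.08%) and the exact test (1.95%) called 0. Without SN-011 replicate 2, Ugt1a10 and Ugt3a1 were called (2.21% of all genes). Groups did not overlap for 6 members (14.6%, beside 21.7% of all genes), 2 higher (11.8%) and 4 lower (9.99%). By size the first 5 of these were Sult2b1 (-0.95 ± 0.34), Sult1d1 (0.44 ± 0.14), Sult1a1 (-0.40 ± 0.19), Sult1b1 (0.37 ± 0.21) and Gstm5 (-0.33 ± 0.09), as log2 fold changes, and the sixth was Sult1c2. SULT1A1 acts on simple phenols and SULT1B1 on thyroid hormones, and Gstm5 is a mu-class member. Sult2b1 had 1.98, 0.811 and 1.54 CPM with SN-011, all below the wild-type libraries.

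With the Y-linked term 10 members had an unadjusted p under 0.05 (21.8% of all genes). Of them 1 was called (3.94% of all genes), Ugt3a1, lower in SN-011 by a log2 fold change of -1.06 ± 0.24 (adjusted p = 0.0412, edgeR). The pairs with Xist carried this, at 73.0 and 67.8 CPM in SN-011 against 210 and 205 in wild type, whereas the lone libraries with Y-linked reads had 292 and 301. Leaving out any library but these lone ones ended this call. Without wild-type replicate 3, or without SN-011 replicate 2, it was 1 of 4 members called (3.63% and 3.69% of all genes), beside Gsta1, Ugt1a10 and Ugt1a6b. Without SN-011 replicate 3 the single call was Ugt8a (4.54% of all genes).

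Within the 4 libraries with Xist, a comparison chosen after seeing the data, edgeR called 3 members between SN-011 and wild type (2.78% of all genes). Ugt3a1 was lower by -1.56 ± 0.09 on the log2 scale (adjusted p = 2.37e-04). Ugt1a10 had 103 and 202 CPM in SN-011 against 9.38 and 30.7 in wild type, a log2 fold change of 2.92 ± 0.50 (adjusted p = 0.0264). Gsta1 had 7.20 and 3.32 CPM against 0.943 and 0.677, a log2 fold change of 2.69 ± 0.46 (adjusted p = 0.0247), and most of its windows are shared with other genes. For each gene the pairs did not overlap, and each pair held 2 libraries.

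Among the libraries with Y-linked reads the groups had 1 library each, SN-011 replicate 2 and wild-type replicate 3, so their difference is a value with no test. On the log2 scale it was 0.90 for Sult1d1, 1.51 for Ugt8a and -0.02 for Ugt3a1. Sult1d1 had 692, 860 and 778 CPM with SN-011, all above the wild-type libraries.

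**Figure D5:**
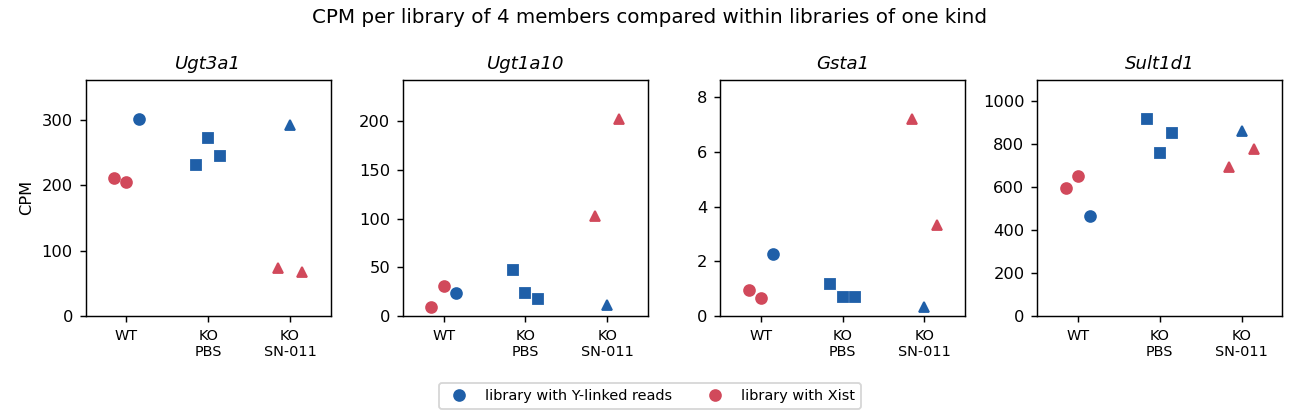
CPM per library (linear axes from 0) of 4 members compared within libraries of one kind. In the libraries with Xist, Ugt3a1 is lower and Ugt1a10 and Gsta1 are higher in SN-011 than in wild type, while the single libraries with Y-linked reads do not show these differences, and Sult1d1 is lower in all 3 wild-type libraries than in the other 6.

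The genes that supply, regulate and follow these enzymes were taken as 6 lists, of which 66 of 71 genes were tested. Without the Y-linked term edgeR called 0 of the 66 in each of the 3 comparisons, while 12, 6 and 9 (18.2%, 9.09% and 13.6%, beside 15.2%, 11.4% and 18% of all genes) had an unadjusted p under 0.05 in PBS against wild type, SN-011 against PBS and SN-011 against wild type. DESeq2 called 3, 1 and 2 (4.55%, 1.52% and 3.03%, beside 4.36%, 1.1% and 4.9% of all genes), and limma-voom 0 in each. With the term, SN-011 against wild type had 3 calls (4.55%), a share near the 3.94% of all genes. These were the NRF2 target Hmox1, which breaks down heme, with 0.72 ± 0.12 (log2), Gclc, the catalytic subunit for glutathione synthesis, with 0.68 ± 0.16, and the conjugate exporter Abcc3 with -1.45 ± 0.30.

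On the Y-linked term 17 of the 66 were called by limma-voom, 23 by DESeq2, and by edgeR 13 were higher and 4 lower (25.8% in all, beside 3.65% of all genes). In the list of the NRF2 axis and glutathione supply 5 of 15 genes were higher and 0 lower. The leading genes were Hmox1 (0.98 ± 0.12), Ggt1, which splits glutathione outside the cell (0.70 ± 0.11), Gsr, glutathione reductase (0.57 ± 0.10), and Gss, glutathione synthetase (0.57 ± 0.12). Among 10 conjugate exporters 3 were lower, Abcc3 (-3.61 ± 0.39), Abcb1b (-1.69 ± 0.22) and Abcc4 (-0.79 ± 0.10), and Abcc2, the apical exporter MRP2, was higher (0.67 ± 0.11). Abcc3, a basolateral exporter, was at 4.81 to 16.1 CPM with Y-linked reads and 34.5 to 136 CPM with Xist.

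Of 7 genes of UDP-glucuronate supply and return, Miox, which oxidizes inositol to glucuronate, was lower by -0.59 ± 0.12 and the other 6 were not called. Among 17 other conjugating and glutathione-fold enzymes 7 were higher and 0 lower. The leading ones were the epoxide hydrolase Ephx2 (1.04 ± 0.11), the methyltransferase Inmt (1.18 ± 0.18) and the acetyltransferases Nat8 (1.14 ± 0.19) and Nat2 (0.95 ± 0.19). None of 10 genes of PAPS supply and sulfatases and of 7 xenobiotic receptors was called by edgeR, with 5 and 1 at an unadjusted p under 0.05 and 2 and 0 called by DESeq2.

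Markers of other cells moved with some groups. The 10 leukocyte markers summed to 48.5 to 68.8 CPM in wild type, 97.0 to 116 in PBS and 44.4 to 93.3 in SN-011. In PBS against wild type the median over the 9 tested was 0.91 (log2), and 0.63 with the Y-linked term. Of the 9, 7 had an unadjusted p under 0.05 (15.2% of all genes), and 3 with the term (10.9%). DESeq2 called 4 without the term (4.36%). By edgeR only Cd3g was called, higher in PBS than in wild type by 1.90 ± 0.38 (log2). This call was lost with the term (1.64 ± 0.46, adjusted p = 0.155, edgeR). The 8 hepatocyte markers summed to 76.5 to 108 CPM in wild type, 143 to 207 in PBS and 177 to 232 in SN-011. Serpina1a alone had means of 22.0, 94.2 and 134 CPM, and the median over the 6 tested was 0.25 (log2) in PBS and 0.09 in SN-011 against wild type. DESeq2 called 2 of the 6 in PBS and 2 in SN-011 against wild type (4.36% and 4.9% of all genes). By edgeR Serpina1a was higher in SN-011 than in wild type by 2.61 ± 0.53 and Apoh higher with Y-linked reads by 3.82 ± 0.36. Adrenal markers summed to 4.97 to 8.25 CPM, with Nr5a1 and Cyp11b2 at 0, and the adipocyte markers to 160 to 417 CPM in wild type, 109 to 213 in PBS and 117 to 166 in SN-011, with 0 of 6 tested called by edgeR in any comparison, 1 by DESeq2 in SN-011 against wild type, and medians of -0.85 and -1.14 (log2) in PBS and SN-011 against wild type. The 8 distal nephron and collecting duct markers summed to 11287 to 12757 CPM with Xist and 9970 to 11125 CPM with Y-linked reads, ranges that did not touch, as for the Gst and Ugt sums, and edgeR called 0 of them on the Y-linked term and DESeq2 1. Slc5a2, the apical glucose transporter SGLT2, was lower in PBS than in wild type by -0.71 ± 0.13, a call also lost with the term (-0.58 ± 0.13, adjusted p = 0.0701, edgeR). In SN-011 against wild type with the term, the fit that called Ugt3a1, edgeR called Slc5a2 (-0.50 ± 0.11) and Slc7a13 (2.15 ± 0.49) of the 10 proximal tubule markers, and Serpina1a (2.76 ± 0.53) and Apoh (1.67 ± 0.39) of the hepatocyte markers. The part of these markers in the members' values was not tested.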

How the data were processed

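PolyA+ RNA of 9 kidney libraries was sequenced as paired reads of 150 bases per the labels. The authors trimmed reads with Trimmomatic, aligned them with HISAT2 to mm10 and counted uniquely mapped reads per gene with featureCounts, and the deposited values are raw counts. The paper's methods describe strand-specific libraries. Versions, annotation release and the strand setting of the counting are not given in the sources used here, so reads of overlapping antisense genes may not be separable. Of 54532 gene identifiers, 54495 were found in GENCODE vM21, which gave symbols, exons and positions on GRCm38. Library totals ran from 16118813 to 21928965 counts, and precision at low levels is set by them: 3 counts, the floor used here, are 0.137 to 0.186 CPM and cover counting error only.

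Groups came from the sample titles. Counts were scaled by TMM and tested in R 4.3.3 with edgeR 4.0.16 (quasi-likelihood F test, all 9 libraries, a mean per group, filterByExpr with a minimum of 10 counts and 15 in total, 16646 genes, Benjamini-Hochberg adjustment over these). All 41 members passed the filter. SE is the absolute log2 fold change over the square root of F. CPM per library are TMM-scaled. The Y-linked term is 1 for libraries with at least 20 CPM of Ddx3y, Kdm5d, Eif2s3y and Uty. Alternatives were DESeq2 1.42.0 (test and size factors), limma 3.58.1 voom, edgeR's exact test, upper-quartile scaling, other filters, a replicate block, only the 6 libraries compared, and leaving out each library. Fits within 1 kind of library, the term with a library left out, and the interaction were added after seeing the data. Promoter windows were aligned with Biopython 1.88. Steps were tested on simulated data.

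Genes named were those called in a comparison, the highest member per family by CPM per kb, the 10 of smallest p for the Y-linked term, the 5 of largest fold change without overlap in each comparison, and those nearest the minimum. Genes of the lists were named where called, at most 4 a list. The members and lists were chosen with earlier results of these data known.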

Additional observations from a re-analysis of the deposited data

Results flagged for a closer look

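The difference between SN-011 and wild type was itself unequal between the kinds of library for 2 of the 41 members (0.499% of all genes tested). This was tested by an interaction term over all 9 libraries, chosen after seeing the data, in which each group had 1 library with Y-linked reads, wild-type replicate 3 and SN-011 replicate 2, against 2 with Xist. For Ugt3a1 the log2 fold change with Y-linked reads exceeded that with Xist by 1.52 ± 0.18 (adjusted p = 0.00614, edgeR). Its values were 292 against 301 CPM in the libraries with Y-linked reads, and 73.0 and 67.8 against 210 and 205 CPM in those with Xist. For Gsta1 the difference was -5.37 ± 0.87 (adjusted p = 0.0311, edgeR). Gsta1 had 0.348 against 2.26 CPM in the libraries with Y-linked reads, and 7.20 and 3.32 against 0.943 and 0.677 CPM in those with Xist. Both results rest on a single library of each group with Y-linked reads, which is assumed to vary like the others. Ugt1a10 differed by -3.98 ± 0.99 in the same test, which did not pass (adjusted p = 0.139).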

How the results depend on the processing

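The limits are few libraries, an unequal split of the Y-linked reads, low counts for members near 0.5 CPM, and reads shared between paralogs. Of 434 alternatives over the 24 results of members named by rule, 409 kept direction and side of the threshold, 18 passed it newly and 7 lost it. Over all 41 members the Y-linked term changed the sign of 16 fold changes in PBS against wild type, 19 in SN-011 against PBS and 4 in SN-011 against wild type, Ugt1a2 and Ugt2b37 in the first among them. The counts below are of members, with the share of all genes called in the same fit. In PBS against wild type, where 0 members were called, DESeq2 called 2 (4.36%), the exact test 9 (8.2%), the fit without a filter beyond 1 read 4 (2.29%), the 6 libraries of the comparison 4 (4.64%) and the libraries with Y-linked reads alone, with a single wild-type library, 1 (1.43%), and leaving out 1 library gave 0 to 5 (0.897% to 4.55%), with 5 without SN-011 replicate 2. In SN-011 against PBS the fit without a filter gave 2 (0.411%), and leaving out 1 library 0 to 9 (0% to 3.05%), with 9 without SN-011 replicate 2. In SN-011 against wild type DESeq2 gave 2 (4.9%), the Y-linked term 1 (3.94%), no filter 1 (1.96%), the libraries with Xist 3 (2.78%), and leaving out 1 library 0 to 2 (0.224% to 2.21%), with 2 without SN-011 replicate 2. The count for the Y-linked term was 5 to 16 (1.25% to 6.83%) when 1 library was left out, with 5 without SN-011 replicate 2. With the term in the fit, leaving out 1 library gave 0 to 3 members in PBS against wild type (1 without SN-011 replicate 2, 1.27%, and 3 when wild-type replicate 3 was left out, 1.86%), 0 to 2 in SN-011 against PBS (2 without SN-011 replicate 2, 0.241%) and 0 to 4 in SN-011 against wild type (4 without either of those libraries, 3.63% and 3.69%). The cause was not tested.

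Nothing in the titles said that replicate numbers mark a shared animal, litter or day. Libraries of the same number had correlations of deviations from -0.294 to 0.242, and those of different numbers from -0.368 to 0.38. Between PBS and SN-011 the same-number values were 0.198, 0.242 and 0.0981, above those of different numbers (-0.216 to 0.0914). The value of -0.294 was between wild-type and SN-011 replicate 2, which differ in kind of library. Whether the numbers pair the libraries was not tested. With a replicate block 0 members were called in each of the 3 comparisons (1.87%, 0% and 1.39% of all genes), with 9, 6 and 3 at an unadjusted p under 0.05 (16.4%, 12.6% and 19.2%), and 12 on the Y-linked term (2.97%), against 14 without it.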
